A study of Arabidopsis thaliana with 22 samples.

Results

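Transcripts of ost1-2 sal1-8 double mutant leaves of Arabidopsis thaliana were compared between plants sprayed with the hormone abscisic acid (ABA) and plants sprayed with a mock solution. The arrays were chosen by their genotype and treatment labels alone, which gave 3 ABA and 3 mock arrays of the double mutant among 22 arrays in the series. The other arrays held sal1-8 (3 ABA, 3 mock), ost1-2 (2 ABA, 2 mock) and wild type (WT; 3 ABA, 3 mock) leaves, all from plants raised and sprayed in the same way. ABA was given at 20 µM as a foliar spray with a surfactant, and the mock spray held ethanol without ABA. The treatment label and the methods of the study give 45 min between spraying and harvest, whereas the labelled protocol gives 2 h. The protocol also names 30-day-old plants and 4 replicates, and the methods name biological triplicates of 1 leaf each from 4-week-old plants. The sal1-8 allele, which the labels call alx8, was in the Col-0 accession and ost1-2 was in Ler. The double mutant was picked as homozygous F2 plants of their cross and WT was the hybrid of both accessions, so an effect of either lesion and of the parental background cannot be told apart between genotypes.

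ABA is the main hormone of the leaf's answer to drought. It binds receptors of the PYR/PYL/RCAR family, which then hold back the group A PP2C phosphatases, and the SnRK2 kinases that those phosphatases keep inactive are released to phosphorylate transcription factors and ion channels. OST1 is the SnRK2 kinase best known from guard cells, the paired cells that close the stomatal pore, and plants without it close their stomata poorly in ABA. SAL1 is a phosphatase of chloroplasts and mitochondria that breaks down the nucleotide PAP, an inhibitor of exoribonucleases, so PAP builds up in sal1 mutants. The comparison asks which transcripts ABA still moves in leaves that lack OST1 when SAL1 is missing as well.

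The arrays were Affymetrix gene arrays read as log2 intensities, on which a difference of 1 is a doubling. As many annotated probe sets were tested as the study kept, taken here by brightness, since its detection calls were not used. A transcript was called where its change passed 1.5-fold and its adjusted p (limma on all 22 arrays, Benjamini-Hochberg) lay below 0.05. The array medians of the double mutant lay between 4.70 and 4.998, and the mean correlation of an array with its group was 0.972 to 0.980. The first ABA array stood apart most: the median of its differences from the mock mean was 0.18, against -0.059 and -0.065 on the other ABA arrays. Probe sets of OST1 and SAL1 were not named in the annotation used here, so the lesions were not checked. RCA, the activase of Rubisco, read 11.91, 11.85 and 11.90 on the ABA arrays and 11.83, 11.97 and 12.00 on the mock arrays, near the top of the scale. The root hair expansin EXPA7 was near its bottom, at 3.29 to 3.48 on the ABA arrays and 2.86 to 3.26 on the mock arrays. In bulk leaf tissue, fewer cells of a type and less RNA per cell cannot be told apart.

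ABA raised 195 transcripts in ost1-2 sal1-8 leaves, 1.42% of those tested, and lowered 58, 0.421% of those tested. Of the raised transcripts 154 changed more than 2-fold and 50 more than 4-fold, with a median log2 change of 1.43 and a range of 0.63 to 4.41. The lowered ones had a median of -1.09 and reached -3.65, with 41 past 2-fold and 7 past 4-fold. Over all tested transcripts the median change was 0.02. The ABA and mock arrays did not overlap for any of the raised transcripts, nor for 56 of the lowered ones. Among all transcripts tested, called or not, they did not overlap for 2067. The calls were made on the same arrays, so the separation of called transcripts largely follows from how they were chosen. At the edge of the call, TRM27 was in at 0.85 ± 0.22 (log2 change ± SE) and AT4G21445 was out at -0.90 ± 0.23. The counts depended on single arrays. Without the second mock array 96 were called higher and 12 lower, without the third mock array 114 and 22, and without the first mock array 225 and 108. Leaving out an ABA array gave 119 and 49 for the first, 135 and 23 for the second and 166 and 25 for the third.

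The highest changes belonged mostly to genes that RefSeq lists by locus number only, which are given here without a role. AT2G47780 had the highest change of the annotated transcripts: 9.68, 9.36 and 9.33 in ABA leaves against 5.43, 4.70 and 5.01 in mock leaves. That is a log2 change of 4.41 ± 0.27 (adjusted p = 1.93e-08). AT5G05220 read 6.20, 5.86 and 6.82 in ABA leaves against 2.73, 2.44 and 2.46 in mock leaves, and its change was 3.75 ± 0.32 (adjusted p = 1.93e-06). The ABA values of both genes lay within about 1 unit of each other and more than 3 units above any mock value. AT2G35070 had a change of similar size, 4.37 ± 0.79, but mock values that spread from 4.07 to 6.28, and its adjusted p was 0.00409. PUB19, a U-box ubiquitin ligase, read 4.94, 5.54 and 5.56 in ABA leaves against 2.06, 2.16 and 2.10 in mock leaves, near the bottom of the scale, a change of 3.24 ± 0.33 (adjusted p = 2.44e-05). WSD1, a wax ester synthase, read 6.69, 6.65 and 6.24 in ABA leaves against 3.66, 3.56 and 3.89 in mock leaves, a change of 2.82 ± 0.39 (adjusted p = 0.000356). Both sets of arrays were tight and far apart for these enzymes. Of the 20 highest annotated transcripts, AT1G70640 alone lost its call when an array was left out (change 3.54, highest adjusted p 0.0722, lost without the second mock, the third mock or the second ABA array).

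**Figure D1:**
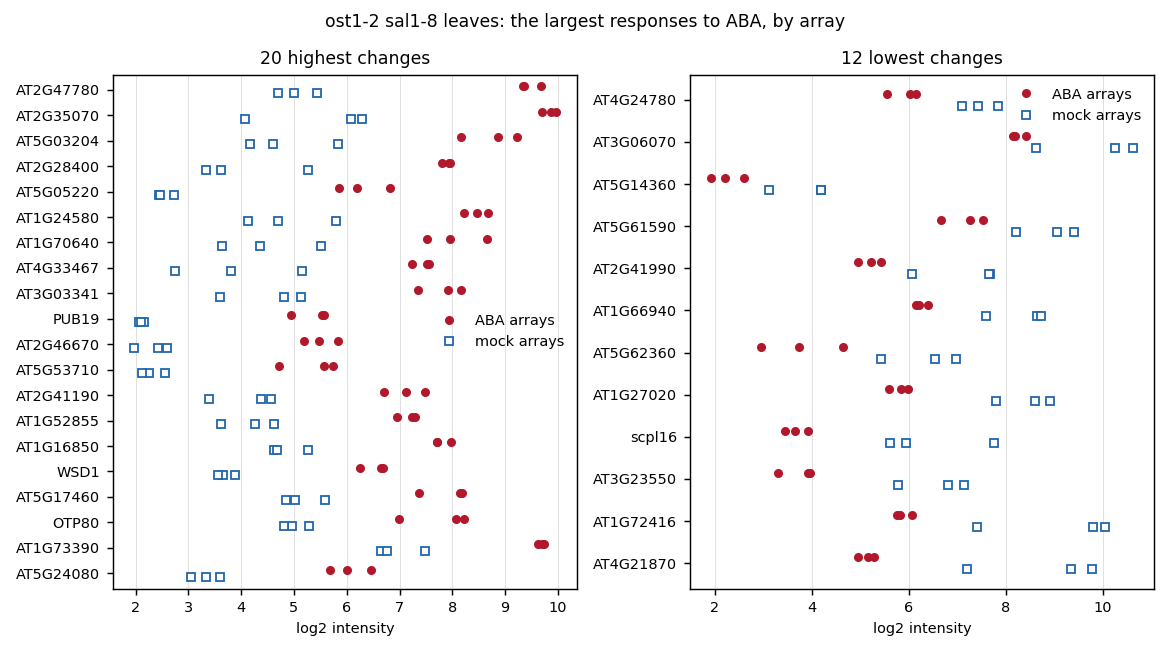
Log2 intensity (x axis) of the 20 annotated transcripts with the highest change (left) and the 12 with the lowest (right) in ost1-2 sal1-8 leaves, 1 point per array, with red circles for ABA and blue squares for mock. The rows were taken only from called transcripts whose ABA and mock arrays do not overlap, so the 2 sets of points are apart by that choice. The mock points are often the more spread, as for AT2G35070, whose mock values run between 4.07 and 6.28.

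Among the lowered transcripts the mock arrays were often unlike each other. AT4G21870 had the lowest change: 4.95, 5.28 and 5.15 in ABA leaves against 7.20, 9.77 and 9.35 in mock leaves, or -3.65 ± 0.57 (adjusted p = 0.00131). AT1G72416 read 5.83, 5.76 and 6.07 in ABA leaves against 7.42, 9.80 and 10.0 in mock leaves, a change of -3.20 ± 0.56 (adjusted p = 0.00317). In both, the first mock array stood about 2 units under the other mock arrays, toward the ABA level. DEWAX (AT5G61590), a repressor of wax synthesis genes, read 7.53, 6.67 and 7.26 in ABA leaves against 8.21, 9.06 and 9.40 in mock leaves, a change of -1.74 ± 0.34 (adjusted p = 0.00831), and lost its call without the second mock, the third mock or the second ABA array. The same first mock array stood on the ABA side in transcripts chosen by their change in WT: over the 882 raised there its median difference from the mock mean of the double mutant was 0.15, against -0.13 and -0.03 for the other mock arrays. Its part in the calls was not tested beyond the counts without it given above.

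Of 14 ABA receptors listed 2 were measured, and of 9 group A phosphatases 3, all named through genes responsive in WT. These 2 receptors and 3 phosphatases moved in opposite directions. Genes of this pathway are named mostly through the study's list of ABA-responsive genes in WT, from which only names were taken, so their direction in WT was fixed by how they came to be named. They were tested among an equal number of probe sets taken by brightness from the full array, annotated or not, where 287 (2.08%) were called higher and 124 (0.9%) lower in the double mutant. PP2CA, a phosphatase that restrains ABA signalling, read 10.5, 10.6 and 10.4 in ABA leaves against 8.41, 6.86 and 7.40 in mock leaves, a change of 2.92 ± 0.29 (limma adjusted p = 1.45e-05). ABI1, its close relative, read 9.84, 9.73 and 9.76 in ABA leaves against 8.07, 6.97 and 7.28 in mock leaves, a change of 2.34 ± 0.29 (adjusted p = 0.000137). The ABA arrays of both phosphatases fell within a narrow band above all mock arrays, and of the mock arrays the first was the highest. HAB2 rose as well, by 1.198 ± 0.25 (adjusted p = 0.0095), a call that was lost without the second mock or the first ABA array. The receptor PYL4 read 6.06, 6.03 and 6.15 in ABA leaves against 7.54, 9.05 and 9.09 in mock leaves, a change of -2.48 ± 0.41 (adjusted p = 0.002). PYL8 changed by -1.04 ± 0.23 (adjusted p = 0.0177), with 9.30, 8.72 and 8.93 in ABA leaves against 9.78, 10.2 and 10.1 in mock leaves. All 3 phosphatases and both receptors measured here were thus called, although PYL8 did not pass without any 1 of 4 arrays (the second or the third mock, the second or the third ABA). Among all genes named through the WT list, 86 of the 277 higher in WT were called higher. Of the 190 lower in WT, 14 were called lower.

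Of the 11 ABA transcription regulators measured, 10 were called higher. All 10 were named through the WT list and were called higher in WT, and ABR1, the annotated one, was not called at 0.51 ± 0.54. Over the 277 genes named through this list that were higher in WT, 86 were called higher in the double mutant. AFP1, a negative regulator that binds the bZIP factor ABI5, had the highest change of them. It read 10.3, 10.1 and 9.84 in ABA leaves against 6.40, 4.84 and 5.27 in mock leaves, a change of 4.60 ± 0.33 (adjusted p = 2.76e-07). RD26, a NAC factor of dehydration and ABA, read 9.15, 8.83 and 8.86 against 6.57, 4.49 and 5.52 in mock leaves, a change of 3.42 ± 0.39 (adjusted p = 5.61e-05). The homeobox factor HB-7 read 7.32, 7.58 and 7.51 against 4.98, 3.38 and 4.35 in mock leaves, or 3.23 ± 0.42 (adjusted p = 0.000202). In all 3 the ABA arrays lay closer together than the mock arrays, and far above them. ABF2, a bZIP factor that binds ABA response elements, changed less, by 1.33 ± 0.22 (adjusted p = 0.00212). NAC032 rose by 2.62 ± 0.35 and NAC019 by 2.52 ± 0.60. ATAF1 was called at 1.65 ± 0.39, but its first mock array (7.27) came close to the lowest ABA array (7.39). The transcription factor LBD1, chosen here after its values were seen, had a higher change than any gene named here, 5.50 ± 0.35 (adjusted p = 5.13e-08), with 9.90, 10.3 and 9.43 in ABA leaves against 4.49, 3.85 and 4.77 in mock leaves.

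**Figure D2:**
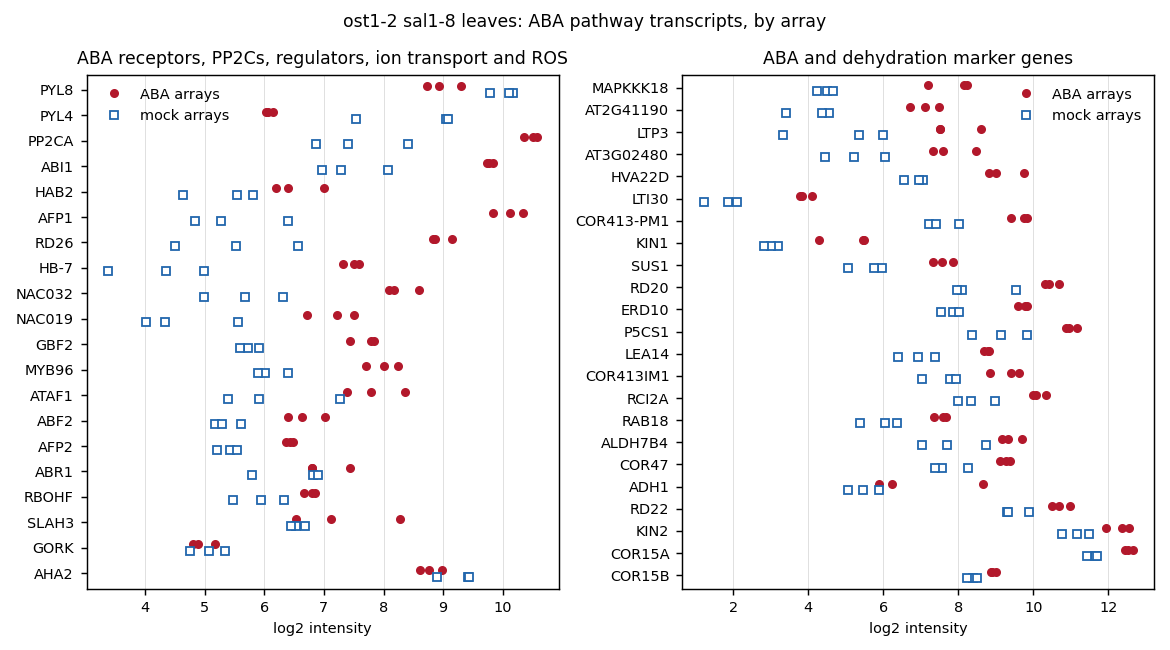
Log2 intensity (x axis) of each measured ABA receptor, PP2C, transcription regulator and guard cell transport or ROS gene (left) and of each ABA and dehydration marker (right) in ost1-2 sal1-8 leaves, red circles for ABA arrays and blue squares for mock arrays. PYL8 and PYL4 are the rows whose ABA points all lie left of the mock points, and in the rows of ABR1, SLAH3, GORK and AHA2 the arrays overlap.

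Among the marker genes of ABA and dehydration, 18 of 23 measured were called higher and none lower. Of the annotated ones 6 of 9 passed, where 1.42% of all annotated transcripts tested did, with a median log2 change of 1.58 against 0.02. Of those named through the WT list 12 of 14 passed, with a median of 1.90. The share was 2.08% on the full array and 86 of 277 among all genes so named that were higher in WT, whose median was 0.81. The kinase gene MAPKKK18 rose by 3.40 ± 0.53 (adjusted p = 0.00108), with 8.15, 7.20 and 8.23 in ABA leaves against 4.51, 4.66 and 4.22 in mock leaves. HVA22D, whose family is induced by ABA, rose by 2.33 ± 0.29. The dehydrin LTI30 rose by 2.19 ± 0.29 with 3.83, 3.79 and 4.11 against 2.11, 1.85 and 1.21 in mock leaves, all near the bottom of the scale. The cold- and ABA-regulated KIN1 read 4.27, 5.46 and 5.50 in ABA leaves against 3.18, 3.02 and 2.83 in mock leaves, a change of 2.07 ± 0.36 (adjusted p = 0.00286). The mock values of KIN1 were near the bottom of the scale too. The groups were apart in all of these, with KIN1 lowest on the first ABA array. RAB18, a dehydrin often used as an ABA marker, rose by 1.62 ± 0.31 (adjusted p = 0.00583), where the WT change was 4.04. P5CS1, an enzyme of proline synthesis, rose by 1.88 ± 0.40 (adjusted p = 0.0135). Of those that did not pass, LTP3 had the highest change, 2.99 ± 0.83, with mock values of 5.36, 3.33 and 5.98, and ADH1 read 6.23, 5.88 and 8.67 in ABA leaves against 5.88, 5.07 and 5.45 in mock leaves, where 1 ABA array stood far above the rest and the change was 1.46 ± 0.63. KIN2, COR15B and ALDH7B4 did not pass either, at 1.14, 0.54 and 1.58. Of 58 called responses of named genes 39 passed with each array left out in turn and 19 did not, all 19 failing without the second mock array. AT3G02480 (2.56) failed so, and without the third mock or the third ABA array too.

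Of 15 genes listed for guard cell transport and reactive oxygen 4 were measured, all named through the WT list, and 1 was called higher. In WT 3 of these 4 were called higher and 1 lower. Among all genes so named that were higher in WT, 86 of 277 were called higher in the double mutant. RBOHF, an NADPH oxidase that makes reactive oxygen in ABA signalling, read 6.85, 6.67 and 6.80 in ABA leaves against 6.33, 5.47 and 5.95 in mock leaves, a change of 0.86 ± 0.21 (adjusted p = 0.0264). The call was lost without any 1 of 5 arrays, all but the first mock array. The anion channel gene SLAH3 read 6.53, 7.11 and 8.28 in ABA leaves against 6.53, 6.45 and 6.69 in mock leaves, or 0.75 ± 0.45, and its first ABA array lay among the mock arrays. GORK, the outward potassium channel of guard cells, read 4.89, 4.80 and 5.18 against 5.34, 5.08 and 4.75 in mock leaves, an overlap with a change of -0.10 ± 0.25 where WT had 1.76. The WT values beside GORK here and RAB18 above are given without a test of the difference. None of the 6 calcium-dependent and CRK kinases measured, of 42 listed, passed. Nor did any of the 5 CBL and CIPK genes measured, of 36 listed. Over all tested, 1.42% of annotated probe sets and 2.08% on the full array were called higher, so no call among so few genes lies near these shares. CIPK6 stood at 0.86 (SE 0.235, adjusted p = 0.0583) and was called without the third mock array (1.09, adjusted p = 0.0267) and with array weights (adjusted p = 0.0412). CRK2 read 10.05, 9.50 and 9.62 in ABA leaves against 9.66, 8.76 and 8.38 in mock leaves, an overlap with a change of 0.79 ± 0.32 (adjusted p = 0.33), and was called with array weights (adjusted p = 0.0435). CRK8 changed by 0.33 ± 0.26. NCED3, the enzyme that limits ABA synthesis, was at 1.62 ± 0.49 without passing (adjusted p = 0.092), as was CYP707A3, which breaks ABA down, at 0.79 ± 0.43.

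KCS2, which elongates fatty acids for wax and suberin, read 8.61, 8.61 and 8.51 in ABA leaves against 5.07, 5.06 and 6.29 in mock leaves, a change of 3.11 ± 0.42 (adjusted p = 0.000223). KCS3 rose by 1.88 ± 0.21 and CER1, of the alkane branch of wax synthesis, by 1.61 ± 0.34. CER3, the partner of CER1, did not pass at 0.22 ± 0.23 and read 11.4, 10.9 and 11.1 in ABA leaves against 10.9, 10.9 and 10.9 in mock leaves. Of the 9 wax and cutin genes found by words among those named through the WT list, 3 were called, all higher. That list does not hold all the wax and cutin genes of this paragraph. Among all genes named through the WT list that were higher in WT, 86 of 277 were called higher. Of the 2 annotated ones found by the same words, DEWAX (-1.74, above) was called lower and none higher, with a median of -0.98. These words did not find every such gene: WSD1, the annotated wax ester synthase called higher above, was outside the list. The cutin genes CYP86A2 (0.97 ± 0.21, adjusted p = 0.0129) and LACS2 (0.88 ± 0.22, adjusted p = 0.0346) were called and were not stable to the loss of an array: CYP86A2 failed without the second mock or the first ABA array, and LACS2 failed without any array but the third mock. Of the 8 sugar genes named through the WT list 5 rose, while none of 3 annotated ones was called (median 0.06). Those that rose included the sucrose synthase SUS1 (1.99 ± 0.43), the trehalose gene TPS11 (1.46 ± 0.24) and the amylase BAM1 (1.2 ± 0.27). The sugar transporter SWEET4 read 10.1, 9.52 and 9.62 in ABA leaves against 8.08, 6.84 and 7.40 in mock leaves, a change of 2.31 ± 0.31 (adjusted p = 0.000282). It was the only call among 10 annotated sugar and amino acid transporters, whose median was -0.03, and none of the 4 named through the WT list was called.

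Families found by name in the annotation are to be read against 1.42% called higher and 0.421% called lower over all tested. Of 45 UDP-glycosyltransferase transcripts 4 fell and 1 rose, with a median of 0.12. UGT85A2 read 6.96, 6.67 and 6.76 in ABA leaves against 7.88, 8.59 and 8.48 in mock leaves, a change of -1.52 ± 0.27 (adjusted p = 0.00372). UGT72E1, which acts on lignin precursors, had -1.52 ± 0.29 (adjusted p = 0.00626) and was lost without the second mock array. UGT71C5, which conjugates ABA with glucose, fell by 1.01 on the log2 scale and lost its call without any array but the first mock, and UGT76E11 rose by 1.29 with a call lost without the second or the third mock or the first or the third ABA array. Of 36 cell wall transcripts, a list that includes the expansins that loosen walls, 3 rose. EXPA16 read 10.4, 9.99 and 9.76 in ABA leaves against 7.64, 7.72 and 7.83 in mock leaves, a change of 2.32 ± 0.41 (adjusted p = 0.00352). EXLA2 rose by 1.62 ± 0.30 and EXLA1 by 1.69 ± 0.39, with EXLA1 losing its call without the first or second mock or the second or the third ABA array. EXPA1, named through the WT list, changed by -2.303 ± 0.44 (adjusted p = 0.00587). Of 10 ubiquitin ligase transcripts PUB19 and PUB43 rose, and PUB43 (1.04 ± 0.25) was lost without the second or the third mock or the first or the third ABA array. WRKY29 was the only call among 7 WRKY factors, at -1.085 ± 0.24 (adjusted p = 0.0189), and was lost without the second mock or the second or the third ABA array. No call was made among 20 annotated bZIP factors, 21 cytochromes P450, 10 glutathione S-transferases, 9 peroxidases or 9 photosystem proteins, whose medians lay between -0.07 and 0.25.

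Of the leaf cell type markers measured, CYP86A2 and LACS2 were called, both named through the WT list. That list gave 2 mesophyll markers, both called lower in WT, and 3 guard cell markers, 2 of them called higher there. It also gave both epidermis markers, called higher in WT. Among all genes so named that were higher in WT, 86 of 277 were called higher in the double mutant. The mesophyll markers RCA, LHCB4.2, RBCS1B and RBCS2B all had changes below 0, of -0.05 to -0.68, with no call. Of the guard cell markers FAMA (-0.21), CHX20 (-0.64), GORK (-0.10) and TGG2 (0.01) were not called and CYP86A2 was, and of the epidermis markers CER5 (0.36) was not and LACS2 was. The vein gene SWEET11 stood at -0.38 and EXPA7 at 0.39. The reference genes TIP41, UBC21 and SAND lay between -0.11 and 0.15. The calls of CYP86A2 and LACS2 stand beside those of the wax genes above, and the part of cell makeup in either was not tested.

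Set against the other genotypes, the transcripts raised in the double mutant had positive changes in sal1-8 (190 of 195) and WT (188) and mixed ones in ost1-2 (102). Their median change was 1.43 in ost1-2 sal1-8, 1.18 in sal1-8, 0.03 in ost1-2 and 1.66 in WT. Of the 195, 116 were called higher in sal1-8 too, 146 in WT and 0 in ost1-2. The sizes of the lists differ: sal1-8 had 191 called higher (1.39%) and 101 lower (0.733%), ost1-2 had 3 (0.0218%) and 2 (0.0145%), and WT had 882 (6.4%) and 778 (5.65%). The shared transcripts were thus 116 of 191 in sal1-8 and 146 of 882 in WT, and for the lowered ones 35 of 101 and 42 of 778. For the 58 lowered transcripts the medians were -1.09, -1.06, -0.30 and -1.05 in the same order of genotypes, and 35 were called lower in sal1-8, 0 in ost1-2 and 42 in WT. Since the double mutant's own values chose these transcripts, its medians are a description. Read the other way, the 882 transcripts raised in WT had a median change of 0.48 in ost1-2 sal1-8, 803 of them above 0, and the 778 lowered in WT had a median of -0.21. Only 5 calls were made in ost1-2, which had 2 arrays a group, and 1288 transcripts passed an unadjusted p of 0.05 there.

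**Figure D3:**
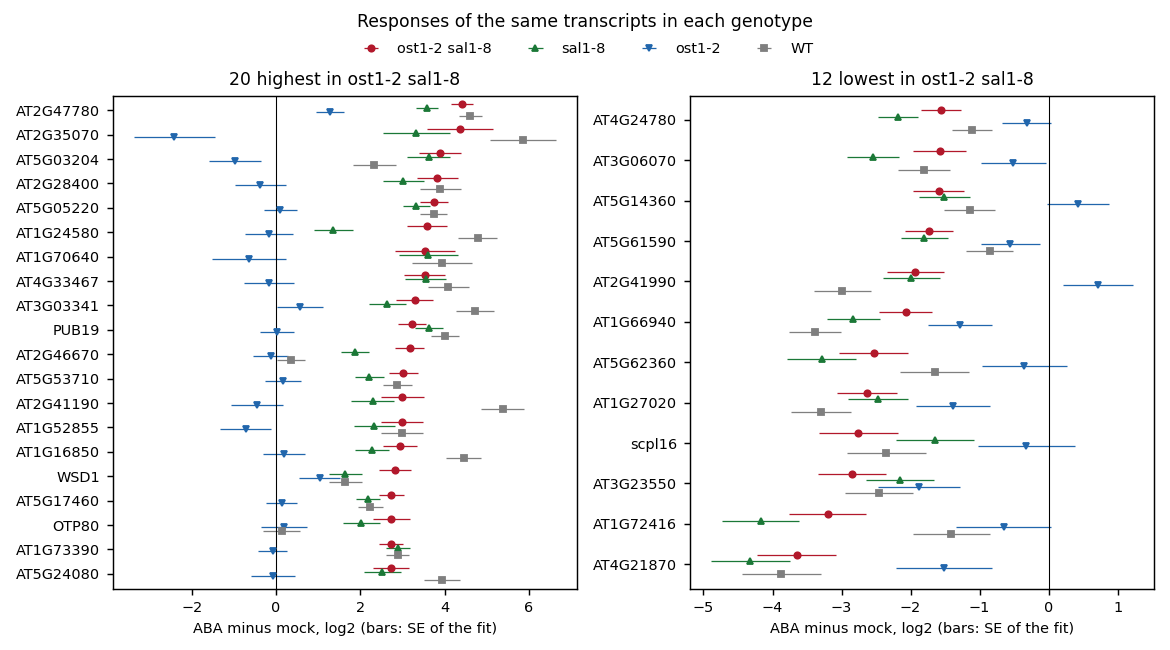
ABA minus mock on the log2 scale (x axis, bars for the SE of the limma fit) for the 20 highest and 12 lowest transcripts of ost1-2 sal1-8, in ost1-2 sal1-8, sal1-8, ost1-2 and WT. The blue ost1-2 points sit near 0 in most rows of the left panel, for PUB19 at 0.03, and the grey WT points of AT2G46670 (0.36) and OTP80 (0.13) lie there too.

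The responses were then compared directly. Against ost1-2, which differs from the double mutant by SAL1 and in background, 28 transcripts had a higher response in ost1-2 sal1-8 (0.203% of those tested) and 3 a lower one (0.0218%). AT5G05220 changed by 3.75 in ost1-2 sal1-8 and by 0.11 in ost1-2, a difference of 3.64 ± 0.51 (adjusted p = 0.00671). The differences were 3.21 ± 0.53 for PUB19 (adjusted p = 0.0115) and 3.13 ± 0.42 for AT2G47780 (adjusted p = 0.00671). Of the pathway genes named through WT, AFP1 (3.72 ± 0.52, adjusted p = 0.00312), RD26 (4.03 ± 0.61, adjusted p = 0.0056), PP2CA (2.94 ± 0.46, adjusted p = 0.0064), ABI1 (2.53 ± 0.46, adjusted p = 0.0161), HB-7 (3.63 ± 0.67, adjusted p = 0.0177) and NAC032 (3.03 ± 0.55, adjusted p = 0.0158) differed as well. The MADS-box gene AGL42 differed the other way, by -3.72 ± 0.57 (adjusted p = 0.00811), since it changed by -0.03 in ost1-2 sal1-8 and by 3.69 in ost1-2. With 2 arrays a group in ost1-2, single arrays decided the counts: without the first ost1-2 ABA array 0 were called in either direction, without the second ost1-2 mock array 2 and 1, and without the second ost1-2 ABA array 24 and 6. Among the double mutant's arrays the higher count moved to 12 without the second mock, 14 without the third mock, 11 without the first ABA and 10 without the second ABA array, and the lower count to 16 without the first mock array. AT5G05220 failed without the second ost1-2 mock or the first ost1-2 ABA array, and AGL42 without the first ost1-2 ABA array (highest adjusted p 0.0693 for each).

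Levels in mock leaves differed between these genotypes too. Over the 882 transcripts raised in WT, chosen by their change in WT, the mock level of ost1-2 sal1-8 was below that of ost1-2 by a median of -0.52, and it was above in 164 of them. Over the 778 lowered in WT it was above by a median of 0.35. Over all tested transcripts the median was -0.01. Set against WT mock leaves, the median over the 882 was -0.03 in ost1-2 sal1-8 (418 above WT) and 0.53 in ost1-2 (806 above). Over the 778 it was 0.02 in ost1-2 sal1-8 (397 above) and -0.34 in ost1-2 (87 above). The same WT mock arrays helped choose both sets, since low WT mock values favour a raised call and high ones a lowered call. The values set against WT are therefore partly fixed by that choice. PP2CA had a mock mean of 7.56 in ost1-2 sal1-8 and 9.47 in ost1-2, and AFP1 of 5.50 and 7.26. Against sal1-8 mock leaves the median over the same 882 transcripts was 0.02.

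Against sal1-8, which differs by OST1 and in background, no transcript passed: limma called 0 of those tested (0%), with 382 at an unadjusted p under 0.05, of which 262 were higher and 120 lower in ost1-2 sal1-8. A p that misses the threshold does not show that the genotypes responded alike. AT2G47780 changed by 4.41 in ost1-2 sal1-8 and by 3.58 in sal1-8, a difference of 0.83 ± 0.38, and PYL4 by -2.48 and -2.97, a difference of 0.49 ± 0.58. Picked after its values were seen, AT1G24580 had one of the wider gaps, 3.58 against 1.36, or 2.22 ± 0.66.

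Against WT, 10 transcripts had a higher response in ost1-2 sal1-8 (0.0726% of those tested) and 9 a lower one (0.0653%), and 1510 stood at an unadjusted p under 0.05. The higher differences were of 2 kinds. In 5 transcripts ABA raised the level in the double mutant and not in WT. AT2G46670 read 5.84, 5.19 and 5.46 in ABA leaves against 2.60, 1.96 and 2.42 in mock leaves of ost1-2 sal1-8, where WT averaged 2.11 ± 0.41 and 1.75 ± 0.12 (SD, n = 3 each), and the difference was 2.81 ± 0.47 (limma adjusted p = 0.016). AT5G25600 read 9.90, 9.60 and 9.34 against 7.39, 7.34 and 7.92 in mock leaves, where WT averaged 3.47 ± 0.15 and 3.24 ± 0.19, and its difference was 1.84 ± 0.31 (adjusted p = 0.016). AT5G15980 rose by 1.25 ± 0.25 in ost1-2 sal1-8 and changed by -1.24 in WT, a difference of 2.48 ± 0.35 (adjusted p = 0.00436). The double mutant's AT5G25600 was therefore far above the WT level before any ABA, whereas AT2G46670 was low in mock leaves of both. AT1G76170 (difference 1.71 ± 0.33, adjusted p = 0.0385) and AT4G21065 (1.65 ± 0.29, adjusted p = 0.0224) were the others. In sal1-8 the changes were 1.88 for AT2G46670, 1.07 for AT5G25600, 1.07 for AT5G15980, 1.56 for AT1G76170 and -0.02 for AT4G21065.

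In the other 5, WT was called lower and the double mutant was not called. NAXT1, a transporter that releases nitrate, read 9.99, 10.1 and 9.94 in ABA leaves against 9.65, 10.1 and 10.2 in mock leaves of ost1-2 sal1-8, while WT averaged 5.21 ± 0.485 with ABA and 7.69 ± 0.52 with mock (SD, n = 3 each). The difference was 2.496 ± 0.355 (adjusted p = 0.00436). AT3G17640 changed by -0.72 in ost1-2 sal1-8 and by -3.69 in WT, a difference of 2.97 ± 0.49 (adjusted p = 0.016). The 9 lower differences were transcripts that rose in WT. AT1G72760 read 3.84, 3.59 and 4.36 against 3.04, 3.81 and 3.83 in mock leaves of the double mutant, while WT averaged 7.52 ± 0.21 with ABA and 3.06 ± 0.06 with mock, and the difference was -4.09 ± 0.60 (adjusted p = 0.0052). SINA2 (AT3G13672), named after the SINA ubiquitin ligases, differed by -3.37 ± 0.56 (adjusted p = 0.016), with 0.24 in ost1-2 sal1-8 and 3.61 in WT. The ABA and mock values of AT1G72760 overlapped in the double mutant, with a change of 0.37. AT1G76170 and AT5G45950 (-1.86 ± 0.36) each lost the call without any 1 of 10 of the 12 arrays. AT2G46670 and AT5G25600 lost it without the second mock or first ABA array of the double mutant, AT3G17640 without its second mock array, and AT3G13672 without its second or the third mock array. AT5G15980, NAXT1 and AT1G72760 passed with each array left out. Without the second mock array of the double mutant 2 higher and 4 lower differences were called, without the third such array 6 and 5, without its first ABA array 6 and 8, and without its second ABA array 7 and 5. Leaving out the first WT ABA array gave 24 and 26, and the second gave 20 and 18.

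**Figure D4:**
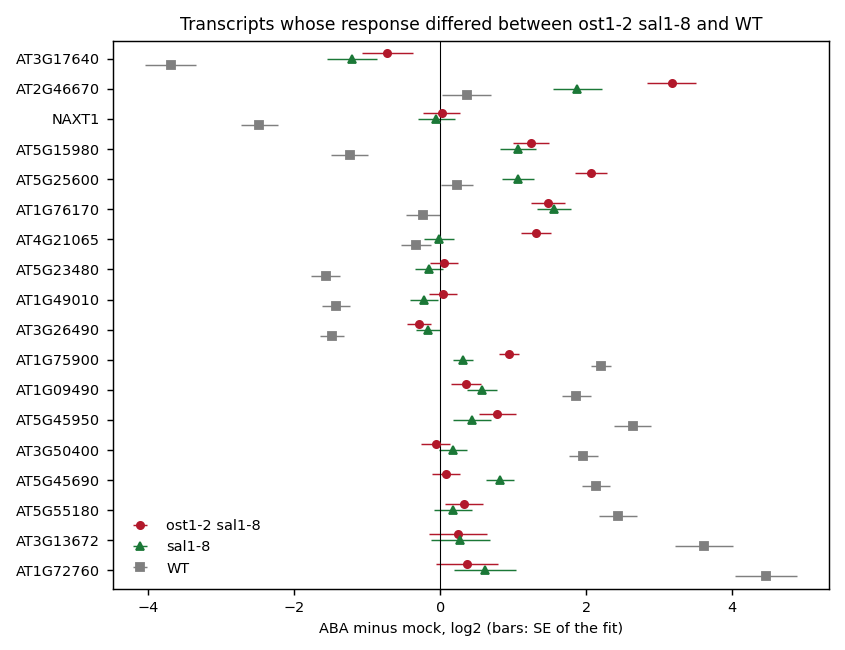
ABA minus mock on the log2 scale (x axis, bars for the SE of the limma fit) in ost1-2 sal1-8, sal1-8 and WT, for the 18 transcripts of 1 gene whose response differed between ost1-2 sal1-8 and WT. Rows run by the size of the difference, AT3G17640 at 2.97 on top and AT1G72760 at -4.09 at the bottom.

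Transcripts raised in the double mutant and not called higher in WT were looked at as a set of 49. Their median change was 1.15 in ost1-2 sal1-8, 0.69 in sal1-8, 0.02 in ost1-2 and 0.27 in WT, and 14 were called in sal1-8. Missing a call in WT is no difference by itself: 5 of the 49 passed the test against WT, and 34 had an unadjusted p under 0.05. Over all tested transcripts 885 had a higher response than in WT at that unadjusted p. The 49 were chosen on the same arrays, and all 49 changed more in ost1-2 sal1-8 than in WT. Their counts in this test and their gap in medians to WT therefore largely follow from that choice. Several of the 49 lie next to an ABA-raised gene in the locus order of RefSeq. Of 47 with 1 locus, 37 had a tested neighbour among protein-coding genes, and for 13 of these (35.1%) a neighbour was called higher in the double mutant. The shares count genes and not pairs, so adjacent members of a set are each counted. Among the 13 this holds for OTP80 with AT5G59210 and for AT5G40800 with AT5G40790. Among the transcripts raised in both genotypes the share was 14 of 113 (12.4%), and among all tested transcripts with 1 locus 282 of 9922 (2.8%). A neighbour raised in WT stood beside 17 of 37 (45.9%), 26 of 113 (23.0%) and 1114 of 9922 (11.2%). No gene bodies overlapped in the 13, strand was not in the tables used here, and the shares are a description with no test.

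AT2G46670, with 3.17 in ost1-2 sal1-8 and 0.36 in WT, lies next to HB-7, which had 3.23 and 4.02. AT5G25600 (2.07 and 0.23) lies next to RD22, a dehydration gene with 1.22 and 1.15. AT5G15950 (1.84 and 0.79) lies next to KIN1, which had 2.07 and 2.93. In each pair the neighbour rose in both genotypes. AT1G52825 (1.282 and 0.16) lies next to CDT1 (1.41 and 2.18), AT5G42053 (1.84 and 0.06) next to AT5G42050 (0.82 and 1.18), and AT3G49230 (1.03 and 0.03) next to AT3G49220 (0.85 and 1.77). OTP80, an RNA editing factor, read 8.23, 6.99 and 8.06 in ABA leaves against 5.29, 4.96 and 4.81 in mock leaves, a change of 2.74 ± 0.44 (adjusted p = 0.00167), where WT had 0.13. The gene beside it, AT5G59210, was raised as well (1.61 in ost1-2 sal1-8, 0.24 in WT), and the difference of OTP80 from WT was 2.61 without passing (adjusted p = 0.118). AT5G15980, beside KIN2 (1.14 and 1.38), was the transcript with opposite changes given above. In sal1-8 the changes were 2.02 for OTP80, 1.34 for AT5G59210, 2.45 for AT5G15950 and 0.50 for AT1G52825. Mock levels of some of these stood above WT before any ABA: AT5G25600 averaged 7.55 in ost1-2 sal1-8 and 7.58 in sal1-8, against 3.04 in ost1-2 and 3.24 in WT. AT1G76170 averaged 8.18, 7.42, 4.89 and 5.23 in the same order. Over the 49, 10 exceeded WT by more than 1 unit in mock leaves of the double mutant, and over all tested transcripts 933 did.

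**Figure D5:**
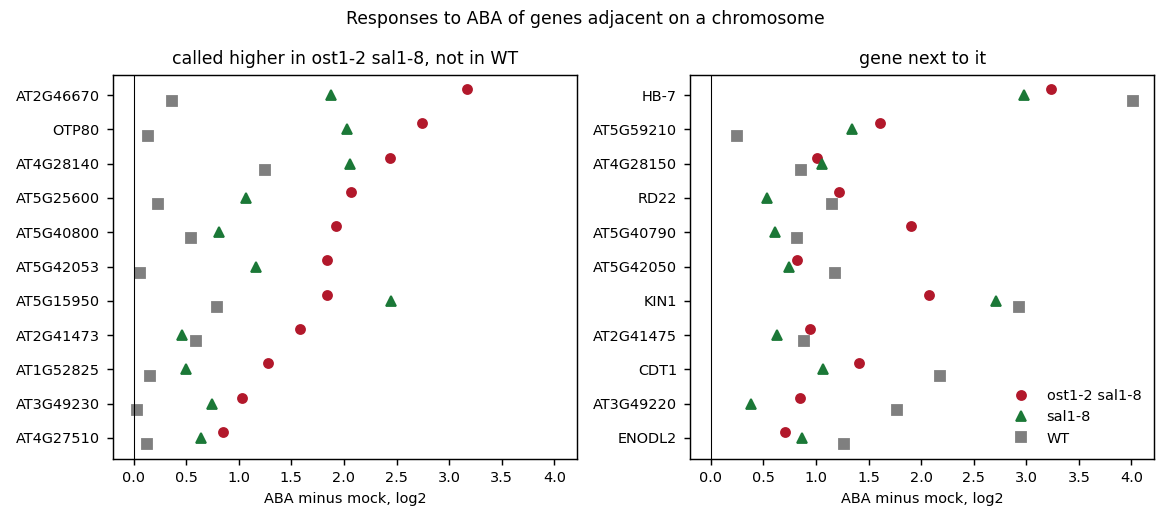
ABA minus mock on the log2 scale (x axis) for transcripts called higher in ost1-2 sal1-8 and not in WT (left) and for the adjacent gene called higher in ost1-2 sal1-8 (right), in ost1-2 sal1-8, sal1-8 and WT. In the left panel the grey WT squares lie left of the red circles (AT2G46670 at 3.17 in ost1-2 sal1-8 and 0.36 in WT), which largely follows from how those transcripts were chosen. In the right panel they lie right of the red circles for 6 of the 11 neighbours (HB-7 at 3.23 in ost1-2 sal1-8 and 4.02 in WT).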

How the data were processed

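Per the labels and the methods, RNA of single leaves was hybridised to Affymetrix Arabidopsis gene arrays. The authors deposited a table of log2 intensities per probe set, made by RMA in oligo 1.28.0 and R 3.1.0 (background correction, quantile normalization and median polish) as the methods describe it; limma 3.20.1, Partek and Affymetrix Power Tools are also named in the submitters' processing notes. Raw array files were not used here. Quantile normalization makes array distributions alike and can mask a shift of all transcripts, although the medians of the deposited arrays still differed.

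Gene names came from the platform annotation, which listed 17481 of 38408 probe sets (16722 with 1 gene, 759 with several), with symbols updated through RefSeq (TAIR10.1), and a further 525 probe sets were named from rows of the study's table of WT-responsive genes, whose values and fold changes were not used. Lists by family words used RefSeq names. Probe sets of several genes were not named in the text.

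In R 4.3.3 and limma 3.58.1, 1 coefficient per group was fitted to all 22 arrays (lmFit, eBayes), with the package the study used. The study kept 13780 genes by detection calls and cross-hybridization; those calls were not used here, and the main test covered that number of annotated probe sets with the highest group mean, and genes named only through the WT table were tested among the 13780 brightest of the whole array. A call took a change above 1.5-fold with a Benjamini-Hochberg adjusted p below 0.05. The differences of responses are contrasts of the same fit and share the double mutant's arrays. Values per array are printed as deposited, and ± beside a change is the fit's standard error. The number of arrays limits the precision and the fit was tested on simulated data.

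Named genes were called transcripts of 1 gene whose ABA and mock arrays do not overlap, the 20 highest and 12 lowest changes, up to 4 called members of each list, the 6 highest and 6 lowest called differences of responses, and the genes the study names. Other list members, mostly named through the WT table, and LBD1 were picked for the text after their values were seen. The members and lists were chosen with earlier results of these data known. Alternatives covered the probe sets tested, the minimum fold, the arrays in the fit, trend and robust options, array weights, further normalization, the run of sample numbers as a random block or, added after seeing the data and for the differences alone, a fixed block, and leaving out each array. A planned search of promoters was not run for want of sequence.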

Additional observations from a re-analysis of the deposited data

Results flagged for a closer look

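The results here stood out because the ABA response of a transcript in ost1-2 sal1-8 differed, by limma's test of the difference itself, from its response in another genotype. Each value is the log2 difference, ost1-2 sal1-8 minus the other genotype. Minus ost1-2, the values were 6.78 for AT2G35070, 4.85 for AT5G03204, 4.2 for AT2G28400, 3.75 for AT1G24580, 3.64 for AT5G05220 and 3.30 for AT2G46670. In the other direction they were -3.72 for AGL42, -2.17 for AT5G02540 and -1.44 for AT4G18340. The value of AT2G35070 joins a change of 4.37 in ost1-2 sal1-8 to one of -2.41 in ost1-2, and its call was lost without any 1 of 6 of the 10 arrays. The call of AT4G18340 was lost without any 1 of 9 of them, that of AT1G24580 without any 1 of 8 and that of AT2G28400 without any 1 of 6. AT5G03204, AT5G05220, AT2G46670 and AT5G02540 lost it without the second ost1-2 mock or the first ost1-2 ABA array, and AGL42 without the first ost1-2 ABA array.

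Minus WT, the values were 2.97 for AT3G17640, 2.81 for AT2G46670, 2.5 for NAXT1, 2.48 for AT5G15980, 1.84 for AT5G25600 and 1.71 for AT1G76170. In the other direction they were -4.09 for AT1G72760, -3.37 for SINA2 (AT3G13672), -2.11 for AT5G55180, -2.05 for AT5G45690, -2.02 for AT3G50400 and -1.86 for AT5G45950. AT1G76170 and AT5G45950 lost the call without any 1 of 10 of the 12 arrays and AT5G55180 without any 1 of 3. AT2G46670 and AT5G25600 lost it without the second mock or the first ABA array of the double mutant, AT3G13672 without its second or the third mock array, and AT3G17640 without its second mock array. AT5G15980, NAXT1, AT1G72760, AT5G45690 and AT3G50400 passed with each array left out.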

How the results depend on the processing

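No paired analysis was possible because replicate numbers were given in accession order only. Counts are higher and lower in ost1-2 sal1-8. Probe sets taken by brightness from the full array gave 287 and 124 for the response, 16 and 31 for the difference from WT and 51 and 8 for that from ost1-2. Fitting the compared groups alone gave 5 and 4 (WT) and 89 and 43 (ost1-2). Trend and robust options moved the lower ost1-2 count to 6. Array weights gave 340 and 237 for the response, 15 and 18 (WT), 176 and 124 (ost1-2), and 139 and 43 among the genes named through the WT table, against 86 and 14; the first ABA array had a weight of 0.426. Leaving out 1 array gave 96 to 225 and 12 to 108 for the response, 2 to 24 and 4 to 26 for the difference from WT, 0 to 42 and 0 to 16 for that from ost1-2, and 42 to 103 and 4 to 18 among the WT-named genes. The difference from sal1-8 stayed at 0 under each setting. Calls higher were 77.1% of the response calls, 79.5% after a further quantile step and 82.1% with array medians set to 0. Runs of consecutive sample numbers, which the labels do not call batches, held several genotypes of 1 treatment each and correlated at 0.0162. As a random block they gave 195 and 58 for the response, 11 and 9 (WT) and 30 and 4 (ost1-2), and as a fixed block, chosen after seeing the data and possible for the differences only, 9 and 5 (WT) and 16 and 3 (ost1-2). Of 83 named values 46 kept their call under every alternative, 37 did not, and none reversed. The causes were not tested.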

Other observations

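Among genes named through the WT table and not described above, the changes in ost1-2 sal1-8 leaves were 1.94 ± 0.43 for ICS2, an isochorismate synthase (adjusted p = 0.0168), and 2.45 ± 0.42 for the ubiquitin ligase AIRP2 (adjusted p = 0.00232). UBC17 changed by -2.505 ± 0.52, the nitrate transporter NRT1.1 by -1.58 ± 0.38, BBX14, a B-box protein, by -1.37 ± 0.21 and the auxin carrier PIN4 by -1.17 ± 0.28, all called lower. The named genes of this paragraph were chosen after their values were seen. Over all 467 such genes 86 were called higher and 14 lower in the double mutant, with medians of 0.81 over the 277 that were higher in WT and -0.33 over the 190 that were lower in WT. These genes were chosen by the study for their response in WT, and the changes and medians above are given without a test between genotypes. By limma's test of the difference from WT, 3 of the 467 had a higher response in ost1-2 sal1-8 and 7 a lower one. In the whole test from the full array 16 were higher and 31 lower.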
